A study of Mus musculus with 32 samples.

Results

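Major histocompatibility complex (MHC) class I molecules and the proteins that load them with peptide were followed through 10 mouse genes of the 21829 counted. They were taken by name: the heavy chain genes H2-K1, H2-D1, H2-Q4, H2-T22 and H2-T23, the light chain gene B2m, the transporter genes Tap1 and Tap2, the tapasin gene Tapbp and the transcriptional regulator Nlrc5. The choice was made with earlier results of these data known, so shares of called genes below are descriptions. The samples were EL08-1D2 cells, a stromal line from mouse embryonic liver, grown with azacitidine (16 libraries) or without it (16 libraries), and n = 16 per group holds below unless another n is given. All libraries came from this 1 line, whose genotype is not described in the labels, and dose and duration of the drug are not given in the sources used here. The drug, a nucleoside close to cytidine, is incorporated into nucleic acid, where it captures the DNA methyltransferases and so lowers methylation; it is given for myelodysplastic syndromes. Values are counts of unique molecular identifiers (UMIs), each standing for 1 captured cDNA molecule, scaled to a common library size (CPM). Whether the libraries were separate cultures is not said in the labels, and p-values below measure only the spread between libraries, which may be technical.

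Class I molecules display peptides from inside the cell to CD8+ T cells and are made by nearly all nucleated cells. A polymorphic heavy chain pairs with beta-2 microglobulin in the endoplasmic reticulum, where the Tap1-Tap2 transporter brings in peptides cut by the proteasome and tapasin holds the empty chain beside the transporter until a peptide fits. The genes are induced by interferons, through IRF and other factors, and by NF-kB, while Nlrc5 acts on a separate promoter module of class I genes. In mm10 coordinates 8 of the 10 genes lay in the H2 complex on chromosome 17, among them H2-K1 (33996017 to 34000347), H2-D1 (35262730 to 35267499) and Tap1 (34187553 to 34197225), while B2m lay on chromosome 2 (122147686 to 122153083) and Nlrc5 on chromosome 8 (94434356 to 94527272).

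The start regions of 5 of the 8 genes with a RefSeq window are printed as examples, and those of H2-Q4, H2-T23 and Tapbp are not. Each window runs from 250 bases before to 50 bases after a RefSeq start (GRCm38.p6, which is mm10) on the strand of the gene: chr17:34000298-34000597 (minus strand) for H2-K1, chr17:35262844-35263143 (plus) for H2-D1, chr17:36042693-36042992 (minus) for H2-T22, chr2:122147437-122147736 (plus) for B2m and chr17:34187306-34187605 (plus) for Tap1. Capitals mark matches on either strand to AANNGAAA, the core bound by IRF factors, and to an NF-kB pattern, GGGA and CC with any 4 bases between them.
H2-K1: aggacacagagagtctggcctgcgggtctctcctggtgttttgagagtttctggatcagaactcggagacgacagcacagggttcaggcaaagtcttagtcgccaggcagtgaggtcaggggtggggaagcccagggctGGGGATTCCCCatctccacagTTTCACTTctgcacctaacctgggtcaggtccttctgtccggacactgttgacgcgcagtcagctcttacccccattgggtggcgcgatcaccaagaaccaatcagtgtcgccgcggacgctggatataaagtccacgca
H2-D1: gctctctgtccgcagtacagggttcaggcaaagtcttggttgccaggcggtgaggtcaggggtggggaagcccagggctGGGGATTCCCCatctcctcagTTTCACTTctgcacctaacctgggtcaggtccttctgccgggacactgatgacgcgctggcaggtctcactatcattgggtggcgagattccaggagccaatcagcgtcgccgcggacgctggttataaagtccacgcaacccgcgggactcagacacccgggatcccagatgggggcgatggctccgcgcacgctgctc
H2-T22: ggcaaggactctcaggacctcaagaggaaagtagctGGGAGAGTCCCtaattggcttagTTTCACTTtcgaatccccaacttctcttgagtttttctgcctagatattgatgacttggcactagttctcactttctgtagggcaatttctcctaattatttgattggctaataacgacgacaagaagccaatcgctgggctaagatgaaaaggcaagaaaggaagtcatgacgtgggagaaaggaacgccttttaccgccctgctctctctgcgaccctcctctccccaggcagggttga
B2m: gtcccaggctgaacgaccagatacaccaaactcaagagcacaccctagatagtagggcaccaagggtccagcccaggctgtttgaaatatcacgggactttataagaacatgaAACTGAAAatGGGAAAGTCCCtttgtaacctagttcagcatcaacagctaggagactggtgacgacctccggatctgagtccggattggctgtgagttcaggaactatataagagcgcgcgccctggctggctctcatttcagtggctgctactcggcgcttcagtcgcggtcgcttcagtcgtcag
Tap1: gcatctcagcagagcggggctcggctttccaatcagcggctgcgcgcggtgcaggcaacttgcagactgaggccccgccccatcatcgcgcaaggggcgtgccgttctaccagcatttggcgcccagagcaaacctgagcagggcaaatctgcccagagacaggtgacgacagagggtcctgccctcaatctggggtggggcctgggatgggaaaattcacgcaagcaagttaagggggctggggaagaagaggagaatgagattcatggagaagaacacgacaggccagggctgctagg
H2-K1 and H2-D1 carried the same letters GGGGATTCCCC followed closely by TTTCACTT, which is the IRF core read on the other strand. H2-T22 and B2m each held a match to both patterns, in that order in H2-T22 and in the other order in B2m, and Tap1 held neither in this window. Of the 8 genes with a RefSeq window 6 had an IRF core and 5 an NF-kB match. Among the windows not printed, H2-Q4 held both, H2-T23 an IRF core alone and Tapbp neither. Over all 32851 windows of this length 23.9% held an IRF core, 20.7% an NF-kB match and 3.7% both. Matches to the 2 patterns did not overlap each other in the printed windows, and a match is a description of letters, not a site shown to be bound. The number of CpG dinucleotides, the positions at which mouse DNA is methylated, was 14 in the H2-K1 window, 19 in H2-D1, 8 in H2-T22, 14 in B2m and 15 in Tap1, against a median of 7 over all windows (quartiles 3 and 20).

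Library totals ran from 1226861 to 5039721 UMIs with azacitidine and from 818619 to 3210801 without it. Libraries were also compared within runs of 4 replicate numbers (1 to 4, 5 to 8, 9 to 12 and 13 to 16), a division chosen from earlier results of these data that the labels do not name. Numbers 1, 2 and 4 with azacitidine and numbers 1 and 2 without it stood apart from the rest. On the first principal component of all tested genes (28.1% of the variance) these 5 libraries lay between 23.9 and 46.0 and the other 27 between -23.9 and 13.3. The 5 were among the deepest, with 5039721, 4458343 and 4015944 UMIs with azacitidine and 3210801 and 2455232 without it. Number 7 with the drug (4218313 UMIs) and number 10 without it (2489108) were as deep but lay at -9.1 and 2.7. The part of depth was not tested. Fold changes of the tested class I genes are therefore also given without numbers 1 to 4 or without the 5 libraries that stood apart. Of 10 listed stromal marker genes 9 were detected in both groups, and Thy1 had 26 UMIs with azacitidine and 0 without it. Listed leukocyte markers summed to between 13.1 and 24.7 CPM with azacitidine and between 5.69 and 14.1 CPM without it, for 5 genes. The defining leukocyte gene Ptprc had 4 UMIs in all libraries with azacitidine and 1 in all without it. For 6 macrophage and dendritic markers the sums were 12.5 to 33.0 CPM with azacitidine and 9.42 to 22.5 CPM without it, and Adgre1 had 1 UMI with azacitidine and 0 without it. Of these lists Cd53, Cd68 and the stromal marker Ly6a rose, with log2 fold changes of 0.92, 1.00 and 0.94, and Col1a1 and Col1a2 fell, with -0.37 and -0.39 (edgeR, adjusted p = 3.1e-06, 3e-05, 0.00074, 0.0014 and 0.001). Without the filter on low counts Fcer1g (65 UMIs with and 4 without azacitidine), Srgn (49 with and 9 without) and Thy1 rose as well (edgeR, adjusted p = 2.5e-05, 0.018 and 3e-04), while Coro1a, Itgam and Lyz2 had log2 fold changes of -0.31, -0.31 and -0.64 without a call. Lymphoid, endothelial and epithelial lists held 9, 20 and 12 UMIs with azacitidine and 0, 7 and 5 without it. The part of these markers in the class I values was not tested. In bulk RNA, fewer cells of a type and less RNA per cell cannot be told apart.

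Transcripts of the heavy chains, the light chain, both transporter subunits and tapasin rose with azacitidine, by amounts that differed between genes. Of the 10 genes 8 passed the filter on low counts, and all 8 rose, by 0.23 to 1.54 on the log2 scale (edgeR's quasi-likelihood test with p-values adjusted after Benjamini and Hochberg over 9344 tested genes, threshold 0.05; of these genes 3.65% rose and 2% fell). Without the filter all 10 were tested and 10 rose, against 3.29% of 21822 genes. The median log2 fold change of the 10 was then 0.86, and that of all genes 0.05. When spike-in RNA set the scale instead, the median of all tested genes moved up by 0.31 on the log2 scale, 354 genes (3.79%) rose and 1 fell (341 and 187 in the main test), and the 8 class I genes lay between 0.53 and 1.86, all but Tapbp with a call.

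**Figure D1:**
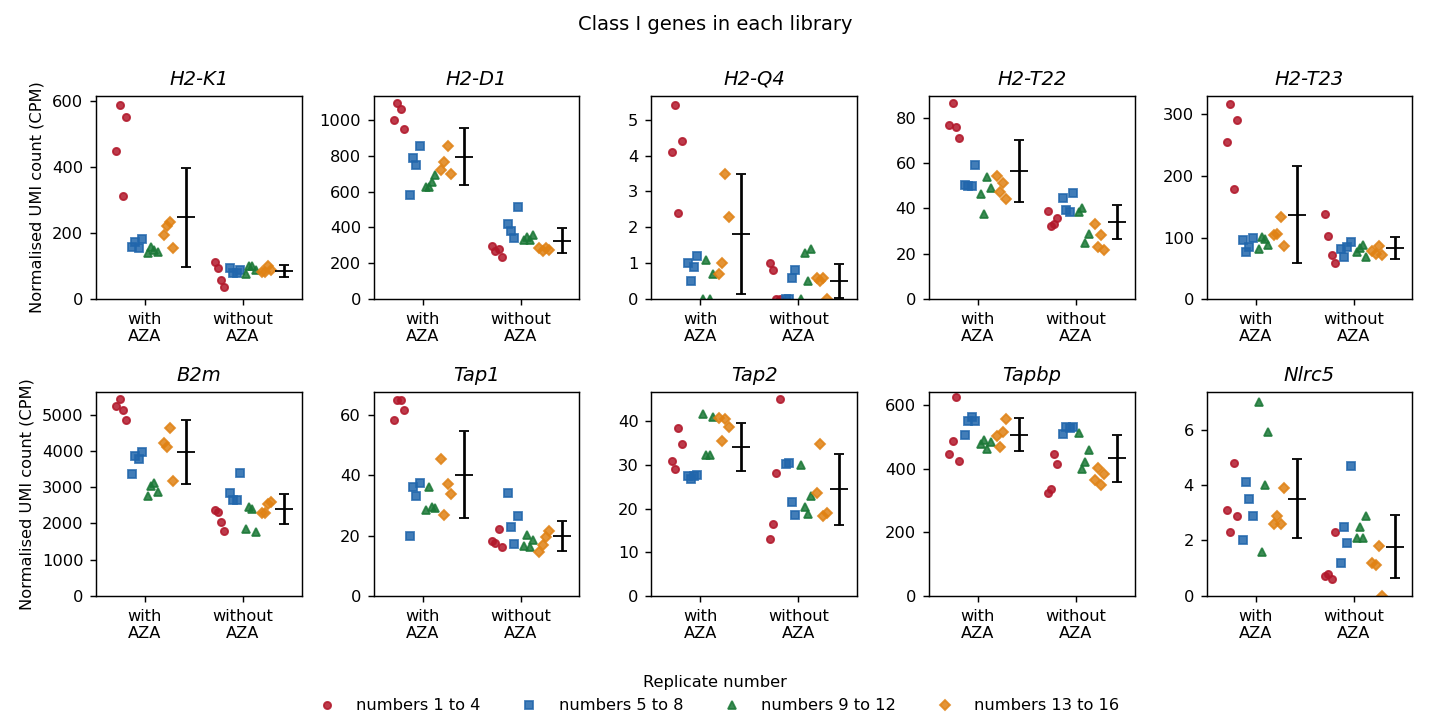
Levels in CPM, on linear axes that start at 0, of the 10 genes in each library with azacitidine (left) and without it (right); symbols give the run of replicate numbers, and the bar with whiskers is the mean and 1 SD of 16 libraries. H2-K1 and H2-D1 do not overlap between the groups. In H2-K1, H2-D1, H2-T22, H2-T23, B2m and Tap1 numbers 1 to 4 with azacitidine lie above all other libraries.

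The classical heavy chains had the highest fold changes of the 8 tested genes. H2-K1, which presents peptides to CD8+ T cells, lay between 141.4 and 589.5 CPM with azacitidine (median 177.1) and between 37.0 and 111.6 CPM without it (median 88.9). Every library with the drug was above every library without it. The mean was 247.9 ± 149 CPM with and 85.45 ± 17.9 CPM without azacitidine (SD), a log2 fold change of 1.54 (SE 0.21, edgeR, adjusted p = 4.6e-06). Numbers 1 to 4 with the drug held 450.2, 589.5, 311.6 and 551.7 CPM, and the other 12 libraries with it lay between 141.4 and 233.1 CPM. Without numbers 1 to 4 in either group the log2 fold change was 0.95 (SE 0.08, edgeR, adjusted p = 8.2e-12).

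H2-D1, the other classical heavy chain in the list, lay between 583.3 and 1091.4 CPM with azacitidine (median 758.0) and between 232.7 and 513.3 CPM without it (median 314.6). These groups did not overlap either. Separation of this kind in the upward direction was seen in 0.278% of tested genes, and among the 8 tested class I genes H2-K1 and H2-D1 showed it. The mean was 793.9 ± 160 CPM with and 325.9 ± 69.4 CPM without azacitidine, a log2 fold change of 1.29 (SE 0.10, edgeR, adjusted p = 1.7e-12). It was 1.06 without numbers 1 to 4 (SE 0.09, edgeR, adjusted p = 1.2e-10).

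The nonclassical chains also rose. H2-T22, a ligand of some gamma-delta T cell receptors, lay between 37.7 and 86.5 CPM with azacitidine (median 50.8) and between 21.5 and 46.6 CPM without it (median 34.5). The groups overlapped, and 13 of 16 libraries with the drug were above all libraries without it. Its log2 fold change was 0.74 (SE 0.11, edgeR, adjusted p = 1.1e-05), and 0.55 without numbers 1 to 4 (SE 0.10, edgeR, adjusted p = 0.00039). H2-T23, whose product Qa-1 engages the CD94-NKG2A receptor of natural killer cells, lay between 77.1 and 317.2 CPM with azacitidine (median 99.7) and between 59.0 and 138.8 CPM without it (median 80.3). The groups overlapped widely: the 4 libraries above all those without the drug were numbers 1 to 4, at 254.7, 317.2, 178.0 and 291.0 CPM. The log2 fold change of H2-T23 was 0.74 over all libraries (SE 0.20, edgeR, adjusted p = 0.021) and 0.27 without numbers 1 to 4 (SE 0.07, edgeR, adjusted p = 0.019), a smaller value with a smaller error. Without the 5 libraries that stood apart it was 0.40 (SE 0.10, edgeR, adjusted p = 0.0089).

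H2-Q4, a class Ib chain of the Q region, was close to the limit of detection. It had 91 UMIs in all libraries with azacitidine and 16 in all without it, was seen in 14 and 10 libraries, and did not pass the filter. Of the 91 UMIs 65 came from numbers 1 to 4, and in numbers 9 to 12 the count was 3 with and 6 without the drug. When all genes were tested H2-Q4 rose by 1.81 on the log2 scale (edgeR, adjusted p = 0.0041).

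Heavy chain sequences resemble each other, and how reads with several matches were counted is not given in the sources used here. Exact 50-base windows of the longest coding transcript (GENCODE M21) that also occur in a transcript of another gene made up 44.7% of H2-T22, 28.8% of H2-T23, 24.3% of H2-Q4, 14.3% of H2-D1 and 8.79% of H2-K1. In the last 500 bases the shares were 59.2% for H2-T22, 38.1% for H2-T23, 33.7% for H2-Q4, 9.53% for H2-D1 and 0.443% for H2-K1. H2-T22 shared 37.9% of its windows with its neighbour H2-T10, so these values are uncertain as to which of the copies was counted. B2m and Nlrc5 shared no window with another gene.

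B2m, the invariant light chain that every class I heavy chain needs, lay between 2758.8 and 5437.6 CPM with azacitidine (median 3918.2) and between 1770.4 and 3391.2 CPM without it (median 2380.5). The groups overlapped, with 10 of 16 libraries with the drug above all those without it. The mean was 3973 ± 885 CPM with and 2388 ± 416 CPM without azacitidine, a log2 fold change of 0.73 (SE 0.10, edgeR, adjusted p = 1.2e-06). Without numbers 1 to 4 it was 0.53 (SE 0.09, edgeR, adjusted p = 0.00018). Within a library, UMIs of the 5 heavy chains came to 30.9 ± 3.9 for every 100 UMIs of B2m with azacitidine and to 22.4 ± 3.3 without it (SD). This ratio ranged from 25.4 to 38.4 with and from 17.6 to 30.9 without the drug, and its run means were 35.7, 28.0, 31.9 and 27.9 with and 22.1, 21.6, 26.3 and 19.5 without it.

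**Figure D2:**
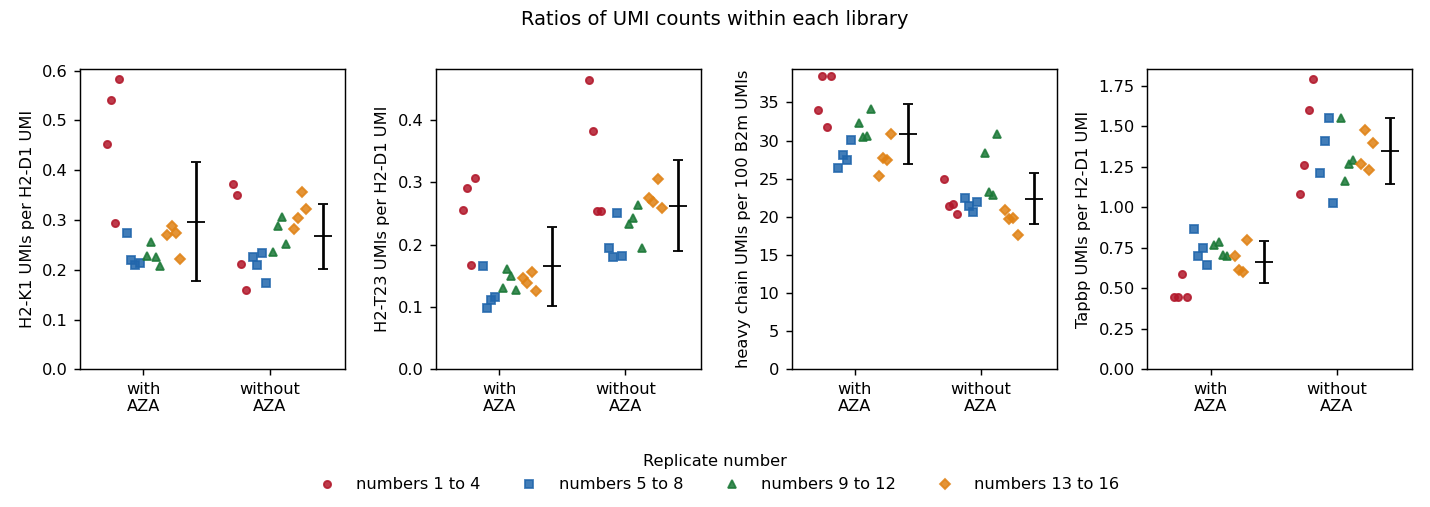
Ratios of UMI counts within each library with azacitidine (left) and without it (right); symbols give the run of replicate numbers, and the bar with whiskers is the mean and 1 SD of 16 libraries. Tapbp per H2-D1 does not overlap between the groups, nor does the level of H2-D1 alone. H2-K1 per H2-D1 is above 0.4 in numbers 1, 2 and 4 with azacitidine.

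The heavy chains did not keep 1 proportion to each other. H2-K1 UMIs per H2-D1 UMI averaged 0.297 ± 0.119 with azacitidine and 0.268 ± 0.0653 without it, and the ranges, 0.207 to 0.583 and 0.159 to 0.373, overlapped. The values above 0.4 were those of numbers 1, 2 and 4 with the drug, at 0.452, 0.54 and 0.583. The highest values without it were 0.373, 0.357 and 0.35, in numbers 1, 15 and 2, so numbers 1 and 2 were high in both groups. The direction differed between runs: the run means were 0.467, 0.228, 0.229 and 0.263 with the drug and 0.273, 0.21, 0.271 and 0.317 without it. Medians over all libraries were 0.262 with and 0.267 without it. The ratio of H2-T23 to H2-D1 was 0.165 ± 0.0631 with and 0.263 ± 0.0736 without azacitidine, and that of H2-T22 to H2-D1 was 0.071 ± 0.0081 with and 0.106 ± 0.0213 without it. In each of the 4 runs both ratios had a lower mean with the drug than without it. H2-T23 per H2-D1 was highest of all libraries in numbers 1 and 2 without the drug, at 0.464 and 0.382.

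The transporter genes followed with unequal steps. Tap1, the first subunit of the peptide transporter, lay between 19.9 and 65.1 CPM with azacitidine (median 36.0) and between 14.7 and 34.3 CPM without it (median 18.5). The groups overlapped, with 9 of 16 libraries with the drug above all those without it. The lowest library with the drug (19.9 CPM) and the highest without it (34.3 CPM) were both in numbers 5 to 8. The mean was 40.25 ± 14.5 CPM with and 19.93 ± 4.89 CPM without azacitidine, a log2 fold change of 1.04 (SE 0.15, edgeR, adjusted p = 5.1e-06). Without numbers 1 to 4 it was 0.69 (SE 0.12, edgeR, adjusted p = 0.00024).

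Tap2, its partner subunit, lay between 26.7 and 41.7 CPM with azacitidine (median 33.5) and between 13.0 and 45.1 CPM without it (median 22.3). The highest library of all was number 4 without the drug, which also had the lowest total of UMIs. The log2 fold change was 0.50 (SE 0.12, edgeR, adjusted p = 0.0063), and it was 0.50 without numbers 1 to 4 as well (SE 0.12, edgeR, adjusted p = 0.0052). After thinning of all libraries to 818619 UMIs Tap2 was not called (0.41, SE 0.13, edgeR, adjusted p = 0.077). Tap1 UMIs per Tap2 UMI averaged 1.21 ± 0.472 with and 0.89 ± 0.307 without azacitidine. In numbers 1 to 4 the ratio was 1.89 ± 0.235 with and 0.901 ± 0.443 without the drug (SD, n = 4 each). In the next 3 runs its means lay closer together, at 1.16, 0.859 and 0.916 with and 1.02, 0.806 and 0.828 without it.

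Tapbp, which encodes tapasin, moved least of the 8 tested genes. It lay between 423.3 and 626.1 CPM with azacitidine (median 497.0) and between 324.2 and 532.8 CPM without it (median 419.3), with 5 of 16 libraries with the drug above all those without it. The mean was 507 ± 51.6 CPM with and 432.7 ± 72.6 CPM without azacitidine, a log2 fold change of 0.23 (SE 0.07, edgeR, adjusted p = 0.04). The call was not firm. It was lost in 14 of the 32 fits that left out 1 library, where the log2 fold change was 0.205 to 0.227 and the adjusted p up to 0.071 (edgeR). Those libraries were numbers 3, 6, 7, 8 and 16 with azacitidine and numbers 1, 2, 4, 10, 11, 13, 14, 15 and 16 without it. Without numbers 1 to 4 the log2 fold change was 0.19 (edgeR, adjusted p = 0.096). Tapbp UMIs per H2-D1 UMI were 0.66 ± 0.129 with azacitidine and 1.35 ± 0.203 without it, and the ranges, 0.447 to 0.866 and 1.03 to 1.79, did not overlap. The level of H2-D1 alone did not overlap between the groups either. For how many other genes a ratio to H2-D1 would separate was not counted.

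Nlrc5, the transactivator of class I genes, was rare. It had 125 UMIs in all libraries with azacitidine and 45 in all without it, and was seen in 16 and 15 libraries. Its level lay between 1.6 and 7.0 CPM with the drug (median 3.0) and between 0.0 and 4.7 CPM without it (median 1.8), so the groups overlapped. Nlrc5 did not pass the filter; when all genes were tested it rose by 0.98 on the log2 scale (edgeR, adjusted p = 0.015). An exon of the opposite-strand gene 9330175E14Rik overlaps it by up to 78 bases. Opposite-strand exons also overlap Tap1 (Psmb9, up to 212 bases) and H2-T22 (A930015D03Rik, up to 1003 bases), and those of genes with at most 6 UMIs or no line in the table overlap H2-Q4, Tap2 and Tapbp. An exon of Zbtb22 (792 UMIs) overlaps Tapbp by up to 88 bases on the same strand, where counting by strand could not separate them. Whether counting used the strand is not given in the sources used here.

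Fold changes were not of 1 size in the 4 runs of replicate numbers. An interaction of run and azacitidine passed the test for 6 of the 8 tested genes, namely H2-D1, H2-K1, B2m, Tap1, H2-T23 and H2-T22 (edgeR, adjusted p = 1.1e-06, 0.00017, 0.00023, 0.0015, 0.0037 and 0.015), and for 3.02% of all tested genes. For Tap2 and Tapbp it did not (edgeR, adjusted p = 0.61 and 0.18). In numbers 1 to 4 mean H2-K1 was 476 ± 124 CPM with and 75.3 ± 33.6 CPM without azacitidine (SD, n = 4 each), a 6.32-fold difference. In the next 3 runs the fold was 1.95, 1.6 and 2.27. H2-D1 differed 3.8-fold, 1.8-fold, 1.9-fold and 2.71-fold in the 4 runs, and B2m 2.43-fold, 1.3-fold, 1.39-fold and 1.66-fold. In numbers 1 to 4 all 4 libraries with azacitidine were above all 4 without it for 6 of the 8 tested genes (5.66% of all tested genes), in numbers 5 to 8 for 3 (5.9%), in numbers 9 to 12 for 5 (3.53%) and in numbers 13 to 16 for 7 (4.6%). H2-K1 and H2-D1 were among them in each run.

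**Figure D3:**
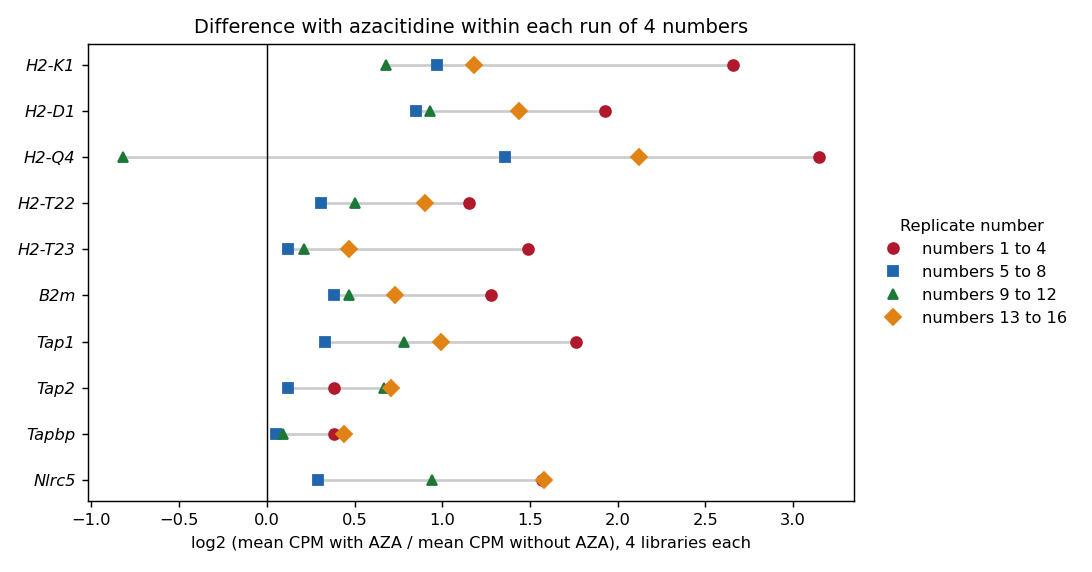
Log2 ratio of mean CPM with azacitidine to mean CPM without it in each run of 4 replicate numbers (4 libraries against 4), for the 10 genes. Numbers 1 to 4 give the highest ratio for H2-K1, H2-D1, H2-Q4, H2-T22, H2-T23, B2m and Tap1, and H2-Q4 in numbers 9 to 12 lies below 0 on 3 against 6 UMIs.

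Part of the difference between runs lay in the libraries without the drug. H2-D1 averaged 413 ± 73.9 CPM without azacitidine in numbers 5 to 8 and 279 ± 8.11 CPM in numbers 13 to 16 (SD, n = 4 each). B2m without the drug averaged 2881 CPM in numbers 5 to 8 and between 2116 and 2427 CPM in the other runs. With the drug H2-D1 was at 1024 ± 64.9 CPM in numbers 1 to 4 and between 649 and 759 CPM in the other runs. Within single runs of 4 against 4 libraries edgeR called 6 of 8 tested genes as increased in numbers 1 to 4 (1.96% of all genes), 3 in numbers 5 to 8 (3.25%), 5 in numbers 9 to 12 (1.04%) and 8 in numbers 13 to 16 (2.26%). H2-K1, H2-D1 and B2m were called in each of the 4 runs, and Tapbp in numbers 13 to 16 alone.

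When the 4 libraries of each run and group were summed, giving 4 sums against 4, 1 of 9 tested class I genes was called (0.855% of all genes rose). It was H2-D1. The log2 fold changes of H2-K1, Tap1 and B2m were then 1.51, 1.02 and 0.72, close to those over single libraries, with larger errors (SE 0.36, 0.23 and 0.17, edgeR, adjusted p = 0.16, 0.11 and 0.12). When the same sums were fitted together with run, 3 of 9 were called (2.56% of all genes rose), namely H2-T22, Tap2 and B2m (edgeR, adjusted p = 0.017, 0.019 and 0.031), while H2-D1, Tapbp, Tap1, H2-K1 and H2-T23 were not (edgeR, adjusted p = 0.062, 0.079, 0.10, 0.29 and 0.46, with log2 fold changes of 1.28, 0.26, 0.99, 1.35 and 0.57).

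Across the 32 libraries, after the group means were removed, H2-K1 and H2-T23 varied most closely together (Pearson r = 0.92 on log2 CPM, n = 32). B2m and H2-D1 had r = 0.77, Tap1 and H2-D1 r = 0.76, and Tap2 and Tap1 r = 0.03. These values describe libraries that share depth and run, and carry no test. All correlations here include the 5 libraries that stood apart, and none was computed without them. The genes outside the list that varied most like the mean of the 8 tested genes were Oasl2 (r = 0.91), Lgals3bp (0.91), Ly6e (0.90), Gbp2 (0.90) and Xaf1 (0.89). For H2-T23 the closest were Timp2 (r = 0.94) and Tmem259 (0.93), and for H2-D1 Lgals3bp (0.88) and Oasl2 (0.86). For Tap2 the closest was Cnn3 (r = 0.79) and for Tapbp Lipa (0.81).

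Among other class I and class I-like genes 6 of 18 were tested, 2 rose and 0 fell (3.65% and 2% of all tested genes), with a median log2 fold change of 0.20. H2-T10, the close copy of H2-T22, averaged 30.18 ± 9.54 CPM with and 17.16 ± 5.37 CPM without azacitidine (log2 fold change 0.83, SE 0.14, edgeR, adjusted p = 8.5e-05). As 37.9% of the H2-T22 windows also occur in H2-T10, its rise may not be separate from that of H2-T22. H2-M3, which presents N-formylated peptides, averaged 46.48 ± 5.74 CPM with and 37.28 ± 6.03 CPM without it (0.31, SE 0.07, edgeR, adjusted p = 0.005). The neonatal Fc receptor gene Fcgrt, the riboflavin-metabolite presenter Mr1 and the iron regulator Hfe were not called, with log2 fold changes of 0.18, 0.22 and 0.00. Of the Q region, H2-Q1, H2-Q2, H2-Q5, H2-Q6, H2-Q7 and H2-Q10 had between 3 and 17 UMIs with and between 1 and 5 without azacitidine, too few for the filter. The groups held 38348576 UMIs with and 27338586 without the drug in all. When all genes were tested none of these Q region genes was called (edgeR, adjusted p from 0.069 to 0.78). H2-T3, also below the filter, had 91 UMIs with and 77 without azacitidine (log2 fold change -0.29, edgeR, adjusted p = 0.63).

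**Figure D4:**
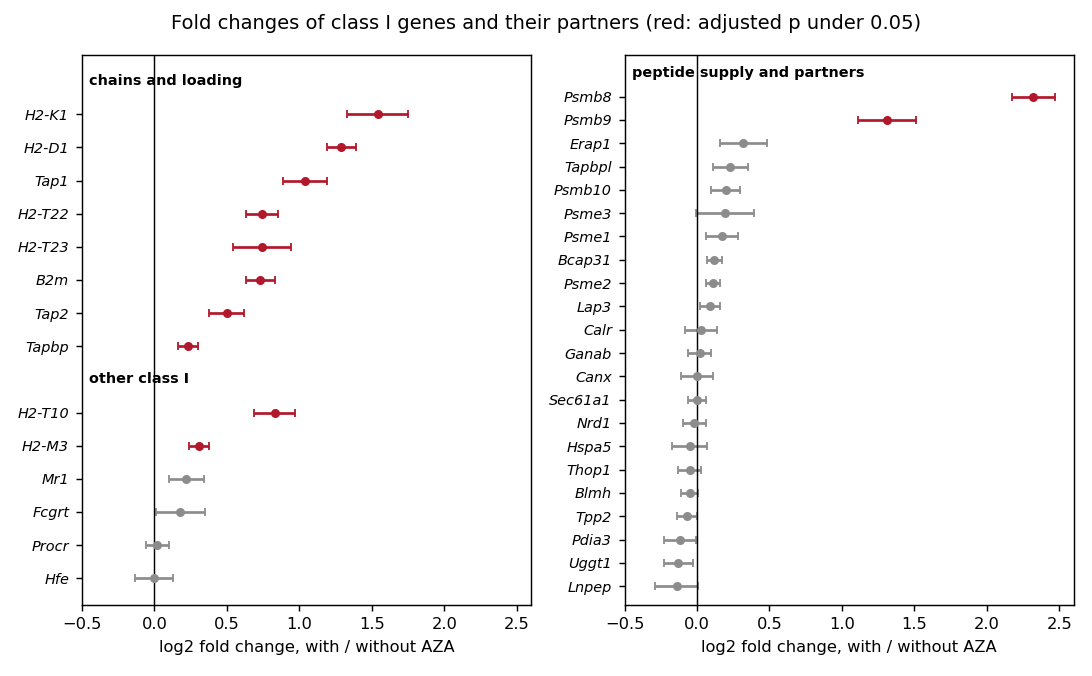
Log2 fold change with azacitidine over without it (edgeR, whiskers 1 SE, 16 libraries a group) for the tested genes of 3 lists; red marks an adjusted p under 0.05. The 8 tested class I genes lie between 0.23 and 1.54, Psmb8 at 2.32, and the chaperones Calr, Canx and Pdia3 between -0.12 and 0.03.

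Of 22 partners that cut, trim or fold for class I, 2 rose (3.65% of all tested genes did) and 0 fell, with a median log2 fold change of 0.03 against 0.00 over all tested genes. They were the immunoproteasome subunits Psmb8, at 31.07 ± 8.25 CPM with and 6.125 ± 1.96 CPM without azacitidine (log2 fold change 2.32, SE 0.15, edgeR, adjusted p = 5.8e-15), and Psmb9, the neighbour of Tap1, at 18.19 ± 8.98 CPM with and 7.502 ± 2.54 CPM without it (1.31, SE 0.20, edgeR, adjusted p = 2.2e-05). A further immunoproteasome subunit, Psmb10, was more abundant, at 235.4 ± 63.5 CPM with and 205 ± 27.9 CPM without azacitidine. Psmb10 was not called (0.20, SE 0.10, edgeR, adjusted p = 0.29), and its change differed between runs (interaction, edgeR, adjusted p = 0.00034). The chaperones of the loading complex were not called: Calr averaged 473.7 ± 118 CPM with and 464.3 ± 83 CPM without azacitidine (log2 fold change 0.03, SE 0.11), and Pdia3 452.2 ± 106 CPM with and 492.8 ± 113 CPM without it (-0.12, SE 0.11). The peptide-trimming protease Erap1 had a log2 fold change of 0.32 (SE 0.16, edgeR, adjusted p = 0.30) and the tapasin relative Tapbpl one of 0.23 (SE 0.12, edgeR, adjusted p = 0.36).

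Of 15 tested transcription factors of class I promoters 4 rose, against 3.65% of all tested genes, and 0 fell. Among those that rose were the interferon signalling genes Irf7 (log2 fold change 1.49, SE 0.24), Irf9 (0.72, SE 0.11) and Stat2 (0.48, SE 0.08), with adjusted p-values of 4.9e-05, 9.9e-06 and 7.1e-05 (edgeR). Each of these 3 also passed the test of an interaction with run. Irf1, an interferon-induced activator of class I promoters, averaged 101.5 ± 28.9 CPM with and 89.66 ± 18.6 CPM without azacitidine and was not called (0.18, SE 0.12, edgeR, adjusted p = 0.47). The NF-kB subunit genes Rela and Nfkb1 had log2 fold changes of 0.04 and 0.13, and the X box and Y box factor genes Rfxank, Rfxap, Nfyb and Nfyc ones of -0.09 to 0.18, without a call. Of 6 tested interferon receptor and kinase genes 0 were called by edgeR, 1 (Jak1) had an unadjusted p under 0.05, and DESeq2 and limma-voom called 0 and 0. Ifnb1 had 2 UMIs with azacitidine and 0 without it.

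Of 3 tested class II genes 0 were called by edgeR and 0 had an unadjusted p under 0.05, with a median log2 fold change of -0.18, and DESeq2 and limma-voom called 0 and 0. Without the filter Cd74, the invariant chain (86 UMIs with and 19 without azacitidine), and the protease Ctss (19 with and 0 without it) rose, 2 of 7 class II genes against 3.29% of all genes (edgeR, adjusted p = 0.011 and 0.0013). Ciita, the class II transactivator, had 1 UMI in each group.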

How the data were processed

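Per the labels' protocols, RNA was purified on columns, copied into barcoded cDNA, pooled and amplified by a UMI method, and libraries were made from 800 pg with a tagmentation kit. STAR 2.4.0, bedtools 2.17.0 and mm10 are named in the submitters' processing notes; annotation, UMI collapsing and strand use are not given in the sources used here. The deposited values are counts (UMIs of each gene in each library), with no normalization by the authors found in them. Of 21897 lines 68 were spike-in RNAs (0.106% of UMIs) and stayed out of library sizes and tests. Of 21829 mouse genes 21506 had a symbol in GENCODE M21. No pair of libraries in a group differed by sampling noise alone (chi-square per degree of freedom at least 1.11 with and 1.13 without azacitidine; highest p = 1.31e-16 and 7.78e-19, chi-square test).

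The test was edgeR 4.0.16 (robust quasi-likelihood, TMM, default expression filter by group, two-sided, Benjamini-Hochberg adjusted p under 0.05 over 9344 tested genes, which held 98.8% of UMIs). CPM uses TMM library sizes, and standard errors are the fold change over the root of F. Correlations used log2(CPM + 0.5). DESeq2 1.42.0 and limma-voom (limma 3.58.1) were other tests; R 4.3.3 and Python 3.11.15 were used. Promoter sequences are RefSeq's (GRCm38.p6), for 8 of the 10 genes. Counting error and the number of libraries limit precision.

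The 10 genes, the gene lists, the runs and the 5 libraries were chosen with earlier results of these data known. Of each list up to 4 called genes in order of p were named, of which 1 is not reported here; other listed genes without a call, and those below the filter, were chosen after their values were seen. Alternatives were 15 settings fixed with the design, and, added after the data were seen, each run alone and leaving out each library in turn.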

Additional observations from a re-analysis of the deposited data

Results flagged for a closer look

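The change with azacitidine differed between the 4 runs of replicate numbers for 6 class I genes by an interaction test (edgeR, 9344 genes). The adjusted p was 1.1e-06 for H2-D1, 0.00017 for H2-K1, 0.00023 for B2m, 0.0015 for Tap1, 0.0037 for H2-T23 and 0.015 for H2-T22. The log2 ratio of mean levels was highest in numbers 1 to 4 for each of the 6, at 1.93, 2.66, 1.28, 1.76, 1.49 and 1.15 in that order. Of all tested genes 3.02% passed this test. What a run stands for is not given in the labels, and its part in the result was not tested.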

How the results depend on the processing

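The direction of all 8 tested class I genes was upward under each of the 15 planned settings, in each run alone and without any 1 library. The number of genes called (528, of which 8 of the 10 class I genes) was 901 with the replicate number as a block, 992 with a run term, 860 without the filter on low counts, 268 after thinning, 108 with sums over runs, and 267 and 117 in numbers 1 to 4 and 9 to 12 alone. The number of class I genes called was 1 with sums over runs, 3 with sums and a run term, and 3 and 5 in numbers 5 to 8 and 9 to 12 alone. Leaving out each library in turn gave 469 to 568 genes and 7 to 8 class I genes. The interaction with run gave 282 genes and 240 to 280 in its 3 alternatives. Whether same-numbered libraries of the groups belong together is not said in the labels, and the main test did not pair them. Deviations of same-numbered libraries correlated between -0.29 and 0.83 (median 0.18), 12 of 16 above 0.1. Of 16 libraries with azacitidine 5 correlated best with their own number, so some pairing is possible. The replicate block kept the call of all 8 class I genes. Besides the values given above, Tapbp was not called with library totals alone (edgeR, adjusted p = 0.075), without the lowest library of each group (0.072), after thinning (0.051) or with spike-in scaling (0.12), and was called in 8 of 15 planned settings (adjusted p from 0.0022 to 0.87). H2-T23 and Tap2 were not called with the sums (edgeR, adjusted p = 0.85 and 0.15). The causes were not tested. The few UMIs of H2-Q4 and Nlrc5 limit what can be said of them.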
